A study of Mus musculus with 116 samples.

Results

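Joins that ran across a Cas9 break in the mouse Myc gene and removed 1 to 100 bp from the far side of the break were examined in 54 libraries from mouse pro-B cell lines, early B-cell precursors transformed by v-Abl, a viral tyrosine kinase that drives their growth. In these libraries a primer beside the break reads outwards, so the primer side is called the bait and the sequence joined to it the prey. The joins were chosen by position: the prey lay on chromosome 15 in the original orientation, and its first aligned base fell between 61987305 and 61987404 (mm10). They made up 342527 of the 891855 rows in the JoinT-seq lists of the Cas9 libraries, where 1 row is 1 read, and 64817 distinct junctions when each combination of prey end, bait end, overlap and inserted bases was counted once per library. All cells carried the Emu-Bcl2 transgene. The 18 groups of 3 libraries were G1-arrested WT (clone A in separate sets of libraries, and clone B), G1-arrested Lig4-/- (clones A1, in separate sets, B1 and C), Ku70-/- (A1 and B1), Lig4-/- Ku70-/- (A1_1 and C1), Lig4-/- +Lig4 (A1 and C), Lig4-/- Ku70-/- +Ku70 (A1_1 and C1), and cycling WT (A) and cycling Lig4-/- (A1). Cells were arrested by 96 h in 3 µM STI-571, which blocks the v-Abl kinase, and the Cas9 nuclease and its c-Myc guide were delivered by nucleofection. Each genotype is represented by 1 to 3 clones, the labels do not say whether replicates were separate cultures, and p-values therefore measure the spread between libraries, which may be technical.

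Classical end joining protects broken ends with the Ku70:Ku80 ring and seals them with ligase IV and its partners, and in lymphoid cells terminal transferase and other polymerases can add bases before sealing. Where Ku or ligase IV is missing, ends can be resected and joined by alternative pathways, which often pair short stretches of identical sequence on the 2 strands, called microhomology. Loss from each side, the bases shared at the junction and any inserted bases are the record that such a join leaves. The design asks how Ku70 and ligase IV, alone and together, and the cell cycle change that record.

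The break lies inside the bounds that RefSeq gives Myc (GRCm38.p6, chromosome 15, 61985341 to 61990361), 1962 bp from the gene's start; whether this is exon or intron was not analysed here. The sequence below was read from 120000 deposited reads and spans the bait side as far as the joins reached and the whole prey window. At each position at least 97.0% of the reads, of at least 25860, carried the base shown. Capitals mark the 20-base target and GGG protospacer-adjacent motif placed by the position of the break, since the labels do not give the guide; Cas9 cleaves after base 17 of the target. Downstream of it, 35 to 81 bp from the break, runs a CA dinucleotide repeat of 47 bp, where several alignments of a read can be equally good.
Myc break region, chr15:61987217-61987404, plus strand: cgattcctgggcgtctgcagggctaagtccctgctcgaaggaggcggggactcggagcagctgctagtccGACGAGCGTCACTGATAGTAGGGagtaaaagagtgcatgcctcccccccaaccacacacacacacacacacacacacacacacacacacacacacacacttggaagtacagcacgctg

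The 12 end pairs with the largest share of short prey deletions, averaged over the 18 groups, include 1 with an inserted base; of the others, 8 carry the differences described here. An end pair is the bases lost from the prey, the bases lost from the bait and the overlap, the bases that the bait and prey alignments share on the read. Total deletion adds the overlap to the losses from both sides. Each product is shown with 20 bases on either side of the overlap, which is in capitals; direct joins have none. The first 3 products were prominent in WT cells, the next 3 in cycling cells, and the last 2 in cells without Ku70. Lig4-/- Ku70-/- +Ku70 cells held the last 2 at similar shares. Arrested Lig4-/- cells, on few rows, also held the products prominent in cycling cells and in cells without Ku70.
Loss of 1 bp prey and 0 bp bait, TA overlap: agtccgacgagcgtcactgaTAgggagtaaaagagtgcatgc
Loss of 1 bp prey and 0 bp bait, direct: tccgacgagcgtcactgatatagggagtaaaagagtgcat
Loss of 2 bp prey and 0 bp bait, direct: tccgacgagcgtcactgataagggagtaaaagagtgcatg
Loss of 5 bp prey and 2 bp bait, GA overlap: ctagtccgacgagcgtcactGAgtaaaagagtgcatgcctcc
Loss of 13 bp prey and 11 bp bait, GAG overlap: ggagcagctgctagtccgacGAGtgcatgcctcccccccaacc
Loss of 17 bp prey and 10 bp bait, GC overlap: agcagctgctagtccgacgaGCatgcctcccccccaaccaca
Loss of 20 bp prey and 23 bp bait, TGC overlap: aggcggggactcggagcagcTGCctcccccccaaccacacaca
Loss of 15 bp prey and 8 bp bait, GT overlap: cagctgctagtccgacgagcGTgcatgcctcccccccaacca
The whole printed stretch was present in 78.6% to 96.1% of the reads of each pair without insertion, and the inner stretch without the outermost 10 bases on each side in 94.5% to 98.5%.

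Libraries held between 12 and 34971 short prey deletions, so precision differed widely. The 15 G1-arrested Lig4-/- libraries together held 818, of which 268 came from replicate 2 of clone C and 124 from replicate 2 of clone A1 in the set normalised to 201858 raw reads. Replicate 2 of that A1 set also held 216 of the 280 joins at the break with no prey loss that all arrested Lig4-/- libraries contained, so these 2 libraries stand apart from their groups. At the edges of the window, 423972 rows had no prey loss and 23317 had lost 1 bp, while 840 had lost 100 bp and 78 had lost 101 bp. Bait loss could not exceed 86 bp, because the primer lies beyond. The prey or bait alignment ends were those the authors deposited, and reads carry no molecular identifiers. Intervals of single shares therefore cover counting error only, whereas intervals of differences reflect the spread between libraries.

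In G1-arrested WT cells short prey deletions were small trims. In rows, most carried inserted bases in clone A but not in clone B, whereas over distinct junctions most did in both. Short prey deletions numbered 580, 918 and 633 per 100000 raw reads in clone A, 473, 768 and 826 in its other set, and 622, 583 and 1198 in clone B. The 3 groups overlapped. They made up 7.62%, 8.09% and 7.30% of all listed junctions in clone A and 13.3%, 11.8% and 12.9% in clone B, so clone B lay above clone A in every library. From 77.2% to 86.2% of the deletions had lost only 1 to 5 bp of prey (median 81.7%, 9 libraries), and the bait was intact in 44.7% to 58.5%. The median total deletion was 4 bp in all 6 clone A libraries and 3 bp in all 3 of clone B.

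In rows, insertions and the TA overlap set the 2 WT clones apart. The clones shared no sequencing run and differed in raw read number, so clone and run cannot be told apart. Inserted bases were present in 77.1%, 76.2% and 77.7% of the short prey deletions of clone A, in 70.8%, 61.8% and 75.8% of its other set, and in 34.6%, 38.3% and 33.5% of clone B. Overlaps of at least 2 bp, the microhomology share, made up 6.13%, 6.54% and 6.45% in clone A and 27.4%, 26.6% and 28.4% in clone B. A single product accounted for most of this: the 3-bp deletion with the TA overlap was 5.17% ± 0.437 (SD, n = 3) of the rows in clone A and 25.1% ± 0.778 in clone B. Counted over distinct fragments, in which reads that also share the far end of the prey are counted once, it was 3.18% ± 0.793 and 2.78% ± 0.590. The excess in clone B was thus present in the rows and not in the distinct fragments. Over distinct junctions insertions made up 91.4% ± 0.884 in clone A, 89.4% ± 2.88 in its other set and 77.9% ± 0.611 in clone B.

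**Figure D1:**
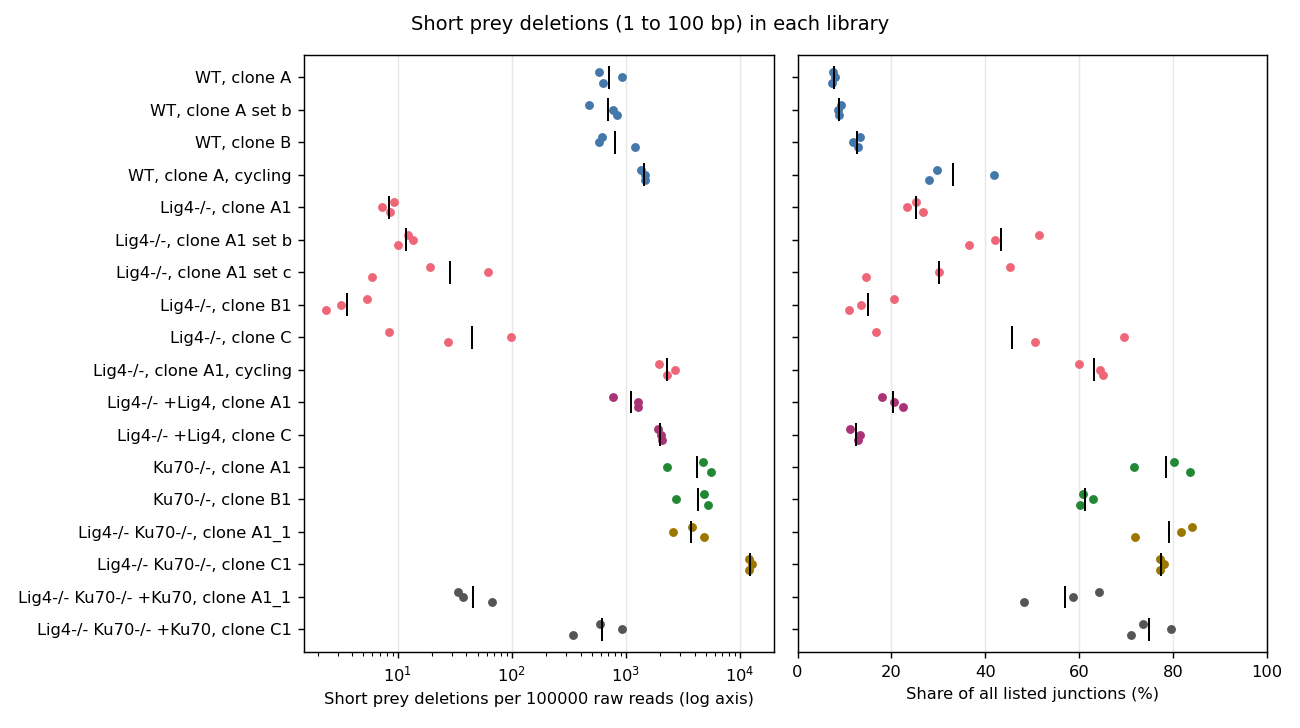
Short prey deletions in each of the 54 libraries (points, 3 per group; the bar is the group mean), per 100000 raw reads on a log axis (left) and as a share of all junctions listed for the library (right). G1-arrested Lig4-/- libraries sit between 2.33 and 98.1 per 100000 raw reads, below every WT library, and libraries without Ku70 between 2290.4 and 12801.

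Counted in rows, loss of Ku70 made short prey deletions the main product of the break. In clone A1 they numbered 4700.5, 2290.4 and 5582 per 100000 raw reads and in clone B1 4844, 2724 and 5204, all above the WT libraries. The mean difference from WT of the same lineage was 2.46 on the log2 scale (pseudocount 0.5 rows; 2.49 in lineage A and 2.44 in B; exact permutation p = 0.005, adjusted p = 0.0139, the smallest the relabellings can give). Their share of all junctions was 80.3%, 71.7% and 83.7% in A1 and 60.9%, 63.0% and 60.2% in B1, 59.8 points above WT (exact permutation p = 0.005, adjusted p = 0.0139). In lineage B, where all libraries came from 1 sequencing run, the gain was 48.7 points in 9 library pairs (range 46.9 to 51.2). Without prey ends in the CA repeat the gain was 36.3 points, with losses of 1 to 50 bp 30.5 points and over distinct junctions 20.3 points, each with an exact permutation p of 0.005. Over distinct junctions the log2 difference in abundance was 1.29. Their share of distinct junctions was 56.8% ± 7.18 (SD, n = 3) in A1 and 39.3% ± 3.73 in B1. In the separately deposited LAM-HTGTS lists the A1 shares were 42.8%, 37.0% and 40.7%. The compared libraries of lineage A shared no run, so there the genotype and the run cannot be told apart in this comparison. Replicate 1 of Ku70-/- A1 did share a run with replicate 2 of the other clone A set, where the shares were 80.3% and 8.65%.

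Ends were trimmed far more without Ku70, and inserted bases were scarce in the rows. The median total deletion was 49, 62 and 46 bp in A1 and 111, 109 and 106 bp in B1 against 3 to 4 bp in WT, a difference of 77 bp (exact permutation p = 0.005, adjusted p = 0.0139). Only 2.49% to 4.77% of the joins had an intact bait, and 7.05% to 13.1% had lost 1 to 5 bp of prey. Insertions fell from the WT values to 3.59%, 2.22% and 2.63% in A1 and 5.12%, 3.92% and 4.75% in B1, a difference of -52.5 points from WT (exact permutation p = 0.005, adjusted p = 0.0139). Direct joins made up 29.4% to 33.4%, an overlap of 1 bp 29.9% to 32.8% and an overlap of 2 bp 21.0% to 24.4%. These shares lay close together in all 6 libraries, although the clones differed in how far the ends were trimmed.

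The microhomology share of Ku70-/- cells was 36.2%, 35.8% and 31.5% in A1 and 32.5%, 31.2% and 30.5% in B1. It exceeded WT by 28.1 points in lineage A and 3.94 points in lineage B (mean 16.04; exact permutation p = 0.005, adjusted p = 0.0139); in WT clone B the TA product alone was 25.1% of the rows. In the separately deposited LAM-HTGTS lists of the lineage A libraries the difference was -3.28 points, so its direction rested on the list used. Over distinct junctions the share in B1 was 6.91% ± 1.03 (n = 3) and in WT clone B 3.34% ± 0.283.

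In rows, the Ku70-/- clones differed in the CA repeat. Prey ends within it made up 22.9%, 31.9% and 20.3% of the joins in A1 and 47.1%, 44.5% and 45.1% in B1, and ends beyond it 7.51%, 11.1% and 4.59% against 27.2%, 26.1% and 25.0%. The clones did not overlap in either band in rows. Over distinct junctions all 6 Ku70-/- libraries held 45.1% to 57.2% of prey ends within the repeat and 8.20% to 21.4% beyond it. This difference between clones was not tested, as each group also had its own sequencing runs and raw read number. Few of these prey alignments, 1.79% of all Ku70-/- short prey deletions, started in the repeat and ended no more than 5 bp past it, which would leave the position within the repeat unanchored.

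**Figure D2:**
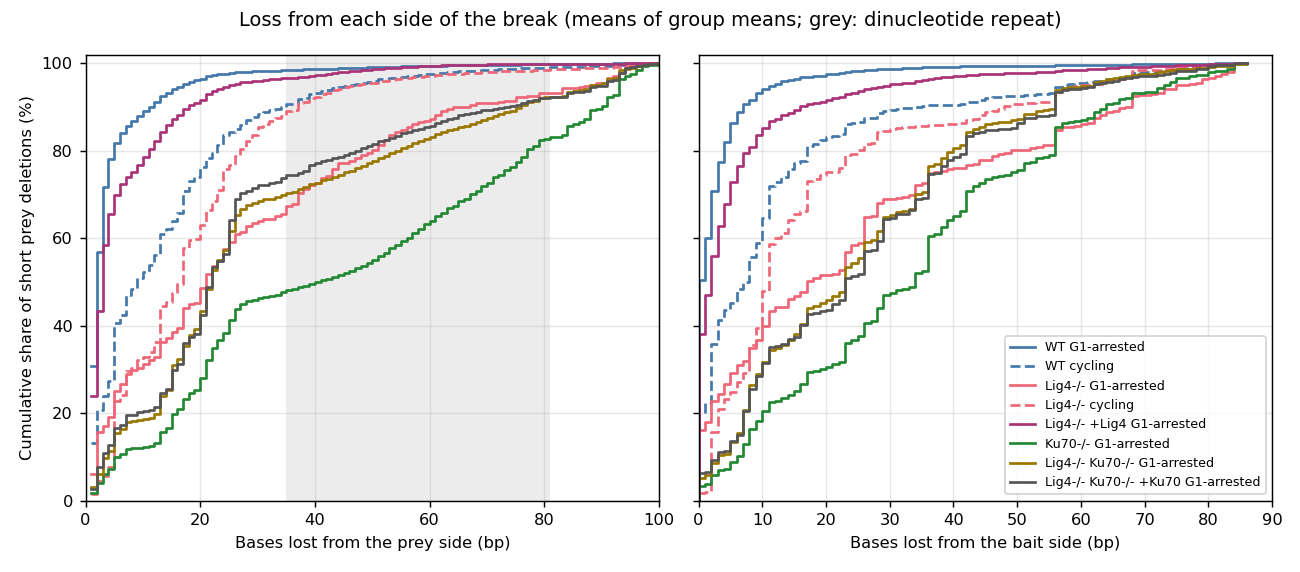
Cumulative share of short prey deletions (y axis, %) against the bases lost from the prey side (left) and the bait side (right), as means of the group means of each genotype and cell cycle class; the grey band is the dinucleotide repeat. The WT curve has passed 80% by 5 bp of prey loss, whereas the Ku70-/- curve rises through the repeat and beyond it.

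Loss of ligase IV removed most short prey deletions from arrested cells. The libraries paired with WT held 9.33, 7.32 and 8.58 per 100000 raw reads in clone A1 and 5.33, 3.17 and 2.33 in B1, below all WT libraries. The mean log2 difference from WT was -7.06 (exact permutation p = 0.005, adjusted p = 0.0139). Because other junctions fell as well, their share of all junctions was 25.3%, 23.4% and 26.8% in A1 and 20.6%, 13.6% and 10.9% in B1. The B1 values overlapped those of WT clone B, and the mean difference of 9.94 points had an exact permutation p of 0.035 and an adjusted p of 0.0729. Over distinct junctions it was -9.23 points, so its direction turned with the way of counting. Without replicate 1 of B1 the difference in rows was 8.54 points with an exact permutation p of 0.07.

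In the JoinT-seq lists the few joins that remained without ligase IV had lost more sequence than those of WT. Their median total deletion was 62, 74 and 47 bp in A1 and 85.5, 46 and 48.5 bp in B1, 57 bp above WT in each lineage (exact permutation p = 0.005, adjusted p = 0.0139). Without prey ends in the CA repeat the difference was 27.7 bp, and with losses of 1 to 50 bp 36.4 bp (exact permutation p = 0.005 for each). In the LAM-HTGTS lists of lineage A it was 2.5 bp (exact permutation p = 0.7), on 7, 7 and 8 Lig4-/- joins, so its size rested on the list used. The microhomology share was 10.8%, 13.8% and 32.4% in A1 and 37.5%, 26.3% and 35.7% in B1, 9.16 points above WT (exact permutation p = 0.02, adjusted p = 0.0435) in which the lineage B libraries overlapped. With any 1 of the 3 clone A WT libraries left out, the exact permutation p was 0.06, at gains of 9.10 to 9.20 points. Without replicate 3 of Lig4-/- A1 the gain was 5.82 points, and over distinct junctions 22.6 points (exact permutation p = 0.005). Over all 15 arrested Lig4-/- libraries the share ranged from 2.38% to 68.4% (median 35.7%).

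Insertions in arrested Lig4-/- cells were fewer than in WT but included long ones, though not in clone B1. They were present in 64.9%, 48.3% and 44.1% of the joins in A1 and in 25.0%, 31.6% and 21.4% in B1, 17.0 points below WT (exact permutation p = 0.005, adjusted p = 0.0139) and 43.1 points below it over distinct junctions. Of the 228 insertions in all arrested Lig4-/- libraries, 60 (26.3%) were longer than 20 bp, and 23 of these 60 had the prey end in the CA repeat. They were unevenly spread, with 8, 11 and 4 in the A1 libraries paired with WT and 0 in each B1 library. In replicate 2 of clone A1 in the set normalised to 310675 raw reads, 52.4% of the 42 joins had such an insertion. In the A1 libraries paired with WT, 28 of the 100 prey alignments (28.0%, exact 95% interval 19.5 to 37.9) started in the repeat and ended no more than 5 bp past it, against 0.556% in WT clone A (interval 0.409 to 0.739). In the other arrested Lig4-/- groups this share was lower, at 2.70% and 1.14% in the other A1 sets, 9.23% in B1 and 1.63% in C. Of the 818 joins, 38 carried inserted bases equal to the reference after the break with an intact bait, which cannot be told apart from a read that continued past the break.

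In rows, Ku70-/- and Lig4-/- cells of the same lineage differed in number and insertions more than in overlaps of at least 2 bp. Ku70-/- libraries held more short prey deletions by 9.52 on the log2 scale, a share of junctions higher by 49.8 points and an insertion share differing by -35.5 points, each with an exact permutation p of 0.005 and an adjusted p of 0.0139. The microhomology share differed by 6.88 points (95% interval -3.80 to 17.7, exact permutation p = 0.24) and the median total deletion by 20 bp (-8.60 to 48.6, exact permutation p = 0.18), with -8.67 bp in lineage A and 48.7 bp in lineage B. Over distinct junctions the microhomology difference was -16.7 points (exact permutation p = 0.015). With a minimum of 1 bp it was 19.3 points (exact permutation p = 0.015), and in the LAM-HTGTS lists of lineage A -15.5 points. Its direction and call thus turned with the count, minimum and list used. The compared libraries of lineage A shared no run, so genotype and run cannot be told apart there.

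Most of the end pairs seen without ligase IV also occurred elsewhere. Of the 590 arrested Lig4-/- rows without an insertion, 556 (94.2%) had an end pair found in Ku70-/- libraries and 566 (95.9%) one found in Lig4-/- Ku70-/- libraries, whereas 313 (53.1%) had one found in arrested WT. Those lists differ in size, with 126470, 122662 and 29284 rows. No end pair was present in all 3 libraries of any arrested Lig4-/- group except 1 pair in clone C.

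Cells that lacked both ligase IV and Ku70 held many short prey deletions. Lig4-/- Ku70-/- libraries held 3782, 2594 and 4785 per 100000 raw reads in A1_1 and 11968, 12801 and 11884 in C1, against 19.3, 61.4 and 5.94 in the matched Lig4-/- A1 set and 8.42, 98.1 and 27.8 in clone C. The mean log2 difference was 8.13 (7.53 in lineage A, 8.73 in C; exact permutation p = 0.005, adjusted p = 0.0139), and within shared runs of lineage A it was 7.11 over 5 library pairs (range 5.39 to 9.59). Lineage C had no such pair. The share of all junctions reached 84.1%, 81.7% and 71.9% in A1_1 and 77.2%, 78.1% and 77.3% in C1, 40.5 points above Lig4-/- (exact permutation p = 0.005, adjusted p = 0.0139). Over distinct junctions the gain was 16.9 points and did not pass (exact permutation p = 0.085).

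Loss of ligase IV on top of Ku70 was compared in lineage A only. Against Ku70-/- clone A1, the A1_1 libraries differed by -0.12 in log2 abundance (exact permutation p = 0.8), 0.647 points in share of junctions (p = 0.7), 0.242 points in microhomology share (p = 0.9), -0.617 points in insertion share (p = 0.2) and -8.33 bp in median total deletion (p = 0.3), all by the exact permutation test; the first was 0.25 over distinct junctions. With 3 against 3 libraries the smallest p is 0.1, so this design cannot call a difference. The groups were normalised to 201858 (A1_1) and 396387 (A1) raw reads and shared a run in only 1 library pair. In that pair log2 abundance differed by 1.06. Microhomology shares were 33.6%, 33.8% and 36.8% in A1_1 and 29.9%, 29.7% and 30.3% in C1. Compared with Lig4-/- libraries, insertions were 20.6 points fewer (exact permutation p = 0.005, adjusted p = 0.0139), at 2.32%, 2.22% and 2.06% in A1_1 and 2.89%, 2.95% and 3.07% in C1. Over distinct junctions this difference was -10.5 points and did not pass (exact permutation p = 0.075). The difference of -11.4 points in microhomology share did not pass (95% interval -25.6 to 6.13, exact permutation p = 0.18, adjusted p = 0.243). Without replicate 3 of the Lig4-/- A1 set it was -14.5 points, and without replicate 1 of clone C -17.5 points, each with an exact permutation p of 0.035. It was -26.6 points over distinct junctions (exact permutation p = 0.005) and -8.04 points with a microhomology minimum of 3 bp (exact permutation p = 0.045).

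Returning Ku70 to these cells lowered short prey deletions again. In the +Ku70 libraries they numbered 33.7, 37.2 and 66.4 per 100000 raw reads in A1_1 and 594, 923 and 344 in C1. The log2 change was -6.36 in A1_1 and -4.41 in C1 (mean -5.39; exact permutation p = 0.005, adjusted p = 0.0139). The share of all junctions changed by -22.2 points in A1_1 and -2.73 in C1 (exact permutation p = 0.02, adjusted p = 0.0435), with overlapping libraries in C1; over distinct junctions it was 4.03 points in the other direction. Against Lig4-/- Ku70-/- the median total deletion differed by 1.5 bp (95% interval -4.48 to 6.96, exact permutation p = 0.575) over rows, though by -18.4 bp over distinct junctions (exact permutation p = 0.005), and the microhomology share by 0.330 points (-9.32 to 6.35, exact permutation p = 0.99), which over distinct junctions became 13.6 points (exact permutation p = 0.005). The microhomology interval rested on the 68, 75 and 134 joins of A1_1, and without its replicate 2 the difference was 4.55 points with an exact permutation p of 0.005. Insertions rose by 3.84 points (exact permutation p = 0.01, adjusted p = 0.0263), with 7.18 in A1_1 and 0.512 in C1, and turned to -5.18 points over distinct junctions (exact permutation p = 0.11); with any 1 of the 3 Lig4-/- Ku70-/- A1_1 libraries left out the exact permutation p was 0.055 to 0.06.

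Cells to which ligase IV was returned had short deletions, many with insertions. The +Lig4 libraries held 771, 1282 and 1280 per 100000 raw reads in A1 and 1923, 2008 and 2088 in C, 5.96 higher on the log2 scale than Lig4-/- (exact permutation p = 0.005, adjusted p = 0.0139). Their median total deletion was 6, 7 and 7 bp in A1 and 5 bp in each C library, 32.3 bp below Lig4-/- (exact permutation p = 0.005, adjusted p = 0.0139). The microhomology share fell by 29.1 points to 15.8%, 17.6% and 17.3% in A1 and 11.6%, 12.4% and 13.2% in C (exact permutation p = 0.005, adjusted p = 0.0139). Insertions rose by 27.5 points to 42.4%, 40.3% and 34.4% in A1 and 63.2%, 62.3% and 61.5% in C (exact permutation p = 0.015, adjusted p = 0.0357). The A1 libraries overlapped those of Lig4-/- in this measure. The compared +Lig4 and Lig4-/- libraries shared no run, so the run cannot be told apart from the genotype there. The other arrested Lig4-/- A1 set, the one compared with WT, came from the same runs as +Lig4 A1. Against that set insertions in +Lig4 A1 differed by -13.4 points with no overlap (64.9%, 48.3% and 44.1% in Lig4-/-), and total deletion was again shorter (62, 74 and 47 bp in Lig4-/-). With it as the lineage A control the rise in insertions over both lineages was 12.96 points and did not pass (exact permutation p = 0.205). The microhomology difference was then -19.9 points (exact permutation p = 0.05), with -2.09 points in lineage A and -37.8 in lineage C. In lineage A the libraries overlapped in this measure (10.8%, 13.8% and 32.4% in Lig4-/-), so the fall rested on lineage C. The share of all junctions differed by -21.5 points (exact permutation p = 0.05, adjusted p = 0.1) and, over distinct junctions, by 1.65.

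**Figure D3:**
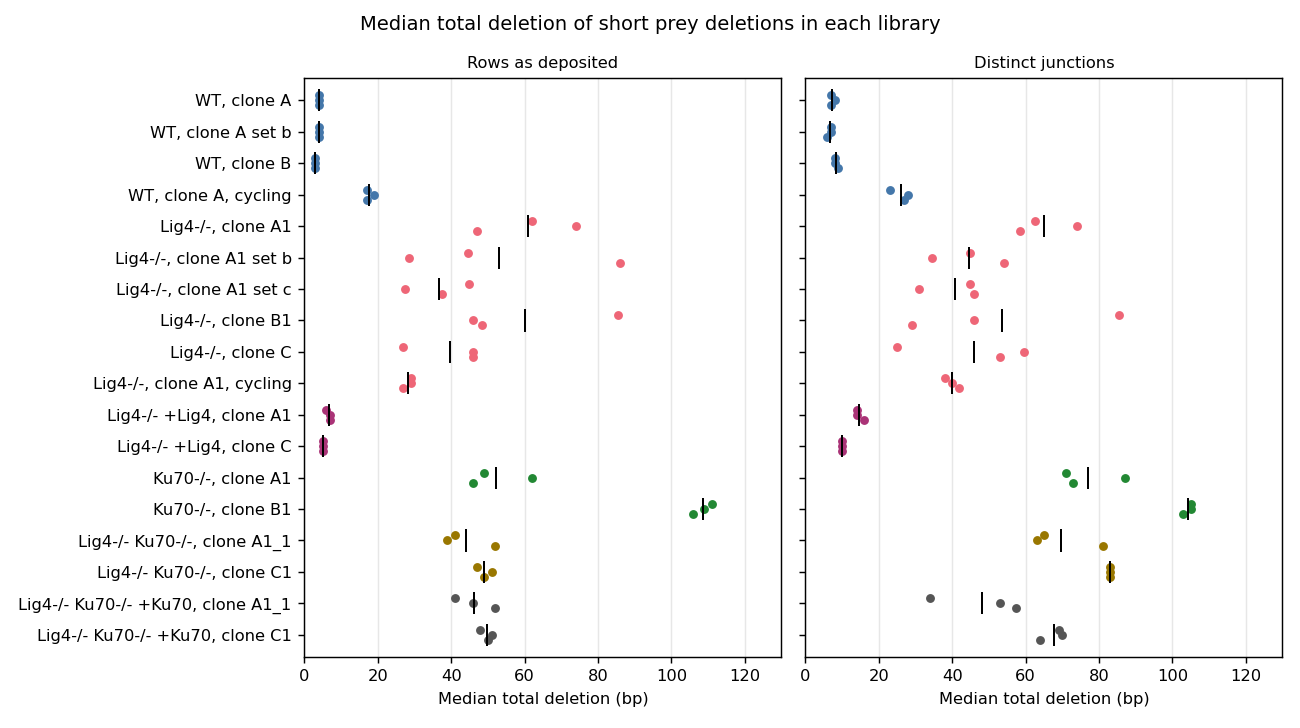
Median total deletion (bp) of the short prey deletions of each library (points; the bar is the group mean), for rows as deposited (left) and for distinct junctions (right). Arrested WT libraries sit at 3 to 4 bp on the left and 6 to 9 bp on the right, and the 2 Ku70-/- clones are separated in both panels.

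Cycling cells of each genotype held more short prey deletions, with larger overlaps in the rows, than arrested cells. Cycling WT libraries held 1341, 1468 and 1468 short prey deletions per 100000 raw reads against 473, 768 and 826 in arrested WT, and cycling Lig4-/- libraries 1937, 2709 and 2266 against 12.2, 13.5 and 9.98. Every cycling library lay above every arrested one of its genotype. The log2 differences were 1.09 and 7.57 (exact permutation p = 0.1 for each, the smallest that 3 against 3 allows). The microhomology share was 39.9%, 46.0% and 37.6% in cycling WT against 7.48%, 12.4% and 6.78%, and 56.4%, 58.7% and 58.5% in cycling Lig4-/- against 36.8%, 2.38% and 41.9%. The differences were 32.3 and 30.8 points, again with no overlap between cycling and arrested libraries and an exact permutation p of 0.1. Without replicate 2 of the arrested Lig4-/- set, where insertions made up 90.5%, the second was 18.5 points. Over distinct junctions the difference in WT was 9.87 points. Over distinct junctions the difference in Lig4-/- was -12.3 points, so its direction turned with the way of counting. The compared cycling and arrested libraries shared no run, so the cell cycle cannot be told apart from the run in these comparisons. Replicate 3 of cycling Lig4-/- did share a run with replicates 1 and 2 of the arrested Lig4-/- A1 set normalised to 201858 raw reads. These held 2266 against 19.3 and 61.4 short prey deletions per 100000 raw reads, with a microhomology share of 58.5% against 46.2% and 41.1%.

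Deletion length differed between the genotypes in its relation to cycling. The median total deletion was 17, 19 and 17 bp in cycling WT against 4 bp in each arrested library, and 29, 29 and 27 bp in cycling Lig4-/- against 44.5, 28.5 and 86 bp. The cycling effect in Lig4-/- minus that in WT was -38.3 bp (exact permutation p = 0.015, adjusted p = 0.0357), with cell cycle labels permuted within each genotype, so the p also counts any cycling effect common to both. Without any 1 of the cycling Lig4-/- libraries the exact permutation p was 0.06 to 0.065, at -37.7 to -38.7 bp. Insertions were present in 27.9%, 18.3% and 20.6% of the cycling WT joins, 47.2 points below arrested WT (exact permutation p = 0.1), and in 18.7%, 16.1% and 16.3% of cycling Lig4-/-. Prey ends in the CA repeat were 8.16% to 10.9% in cycling WT and 9.63% to 11.98% in cycling Lig4-/-. Both ranges lay below every Ku70-/- library.

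**Figure D4:**
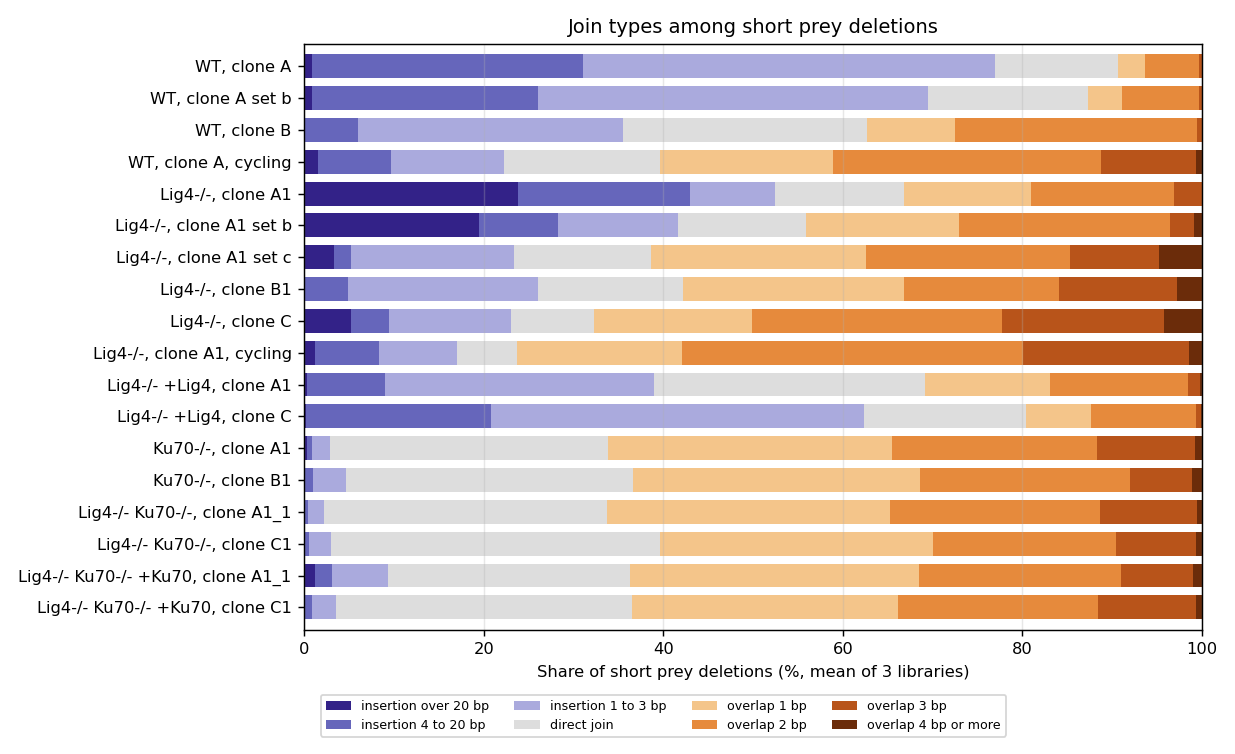
Join types among short prey deletions, as the mean share (%) of 3 libraries in each group: insertions by length, direct joins and overlaps by length. Insertions fill most of the arrested WT clone A bars, direct joins and 1-bp overlaps most of the bars without Ku70, and overlaps of 2 bp or more most of the cycling Lig4-/- bar.

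The end pairs followed the same division. The TA product was the leading pair of arrested WT and of +Lig4 cells, where it was 10.4% ± 0.143 (SD, n = 3) in A1 and 9.28% ± 0.585 in C, and it was 1.61% ± 0.516 and 1.59% ± 0.310 of the Ku70-/- rows of A1 and B1, with no test since the pairs were ranked on these shares. The direct loss of 1 bp was 4.41% ± 0.590 and 7.77% ± 0.541 in WT clones A and B and 0.0995% ± 0.0424 and 0.0673% ± 0.0339 in Ku70-/- clones A1 and B1. Loss of 20 bp of prey and 23 bp of bait with a TGC overlap, a total of 46 bp, was the leading pair of Ku70-/- clone A1 and of the mean of both clones, but not of B1, where the TA and GT products exceeded it. It was 2.86% ± 0.0973 in A1 and 0.866% ± 0.0914 in B1. Only 3 of 29284 rows in arrested WT carried it. In Lig4-/- Ku70-/-, where the TA product led at 3.28% ± 2.06 and 2.42% ± 0.274, it was 3.04% ± 0.210 and 1.99% ± 0.0848. The GT product of 25 bp was 1.94% ± 0.560 and 0.949% ± 0.0431 in Ku70-/- and 2.35% ± 0.0893 and 1.90% ± 0.0875 in Lig4-/- Ku70-/-. Neither product was particular to cells without Ku70. In Lig4-/- Ku70-/- +Ku70 cells of A1_1 and C1 the TGC product was 3.60% and 2.20% and the GT product 1.98% and 2.04%. In cycling Lig4-/- cells the 2 products were 1.43% and 1.35%.

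The GA product led in cycling Lig4-/- cells, and in cycling WT cells it stood level with the TA product, at 5.67% ± 1.88. Loss of 5 bp of prey and 2 bp of bait with a GA overlap, 9 bp in all, was 7.27% ± 0.771 of cycling Lig4-/- and 5.69% ± 2.06 of cycling WT rows, against 0.324% ± 0.200 in the arrested WT libraries they were compared with. In the arrested Lig4-/- libraries of that comparison 0 of 111 rows carried it, which allows a share of up to 2.70%. The GAG product (13 bp of prey, 11 bp of bait, 27 bp in all) was 4.47% ± 0.126 of cycling Lig4-/- and 2.53% ± 0.514 of cycling WT. In arrested Lig4-/- clone C the same product was 6.59% ± 5.63, and in arrested WT it was 25 of 29284 rows. The GC product of 29 bp was 4.09% ± 0.222 in cycling Lig4-/-, 2.46% ± 0.555 in cycling WT and 10 of 29284 rows in arrested WT. It was not particular to cycling cells. Arrested Lig4-/- libraries, on few rows, held it at means of 2.38% in B1, 3.18% in C and 0% to 1.15% in the A1 sets. Counted over distinct fragments, the GA product was 2.71% ± 0.251 of cycling Lig4-/- and 2.80% ± 0.684 of cycling WT, where the TA product was 2.77% ± 0.667.

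**Figure D5:**
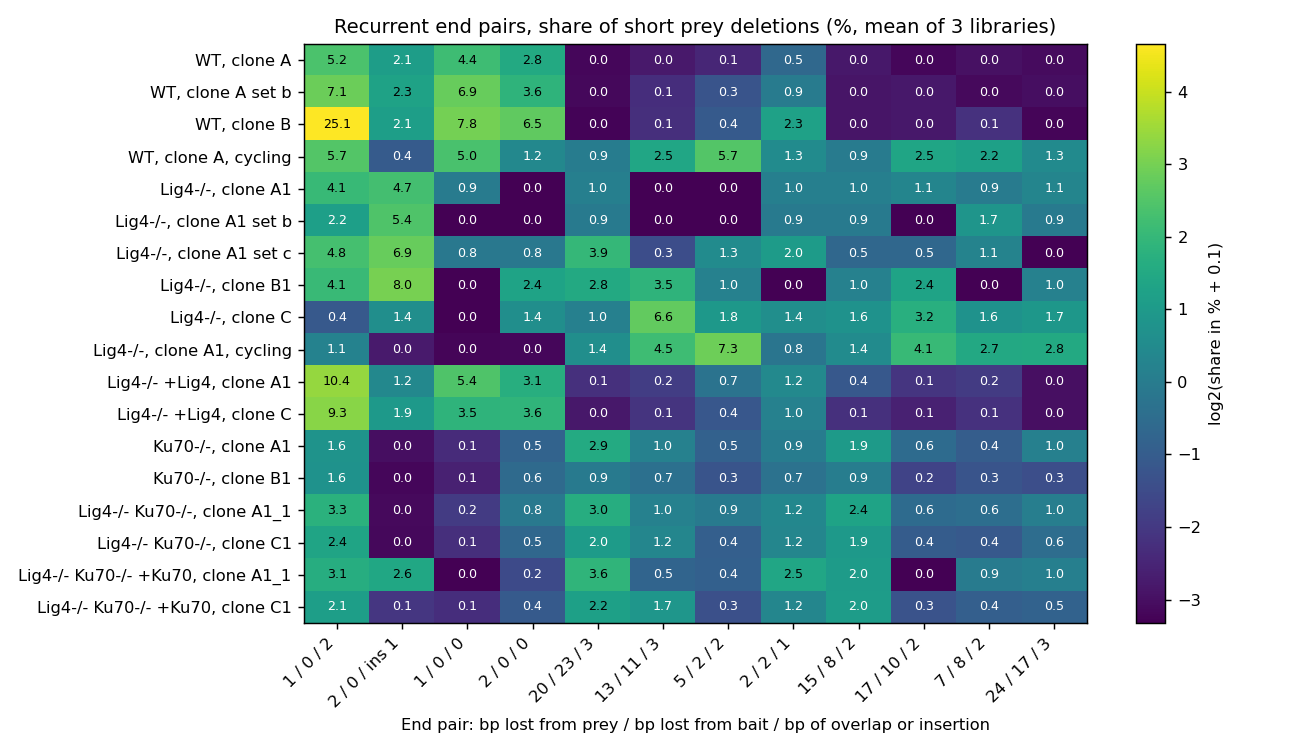
Mean share (%, number in the cell; n = 3 libraries) of the 12 end pairs with the largest share averaged over the groups, coloured on the scale log2(share + 0.1); columns give bp lost from the prey, bp lost from the bait and bp of overlap or insertion. The pairs with an intact bait and no insertion are strong in WT and +Lig4 groups. The pair with 1 inserted base is strongest in arrested Lig4-/-, at a class mean of 5.29% against 2.17% in arrested WT. By class mean, all pairs losing bases from both sides, except 2 bp from each, are lowest in arrested WT. These pairs are seen in cells without Ku70, in +Ku70 cells and in cycling cells. Arrested Lig4-/- cells hold them too, on few rows, at class means of 0.839% to 2.07%.

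The pair with 1 inserted base, 2 bp of prey loss and an intact bait ranked second over all groups, at 2.18%. Of its 1153 rows 643 carried G, the base that follows the bait in the reference, 434 carried A and 76 C. A read with G lacks 1 base of the reference beyond the break and cannot be told apart from a join with an inserted G. In arrested Lig4-/- all 24 rows carried G, whereas in arrested WT 298 of 629 did. G was also carried by 19 of 20 rows in Ku70-/-, all 15 in Lig4-/- Ku70-/- and all 11 in +Ku70 cells. In cycling Lig4-/- 9 of 10 rows carried it, in +Lig4 235 of 393 and in cycling WT 32 of 51. Prey ends within 3 bp of the break, at 61987305 to 61987307, were the commonest over all groups (11.1%, 10.9% and 5.75%), followed by losses of 5 bp (61987309) and 17 bp (61987321). The loss of 5 bp held 13.9% to 15.9% of cycling Lig4-/- and 9.75% to 15.2% of cycling WT rows but 2.80% to 4.70% of arrested WT.

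Inserted bases differed in length and composition. Among the pooled arrested WT insertions the median length was 2 bp, 23.6% were 1 bp and 31.4% were 4 to 20 bp. The median was 3 bp in each clone A library and 2 bp in each clone B library. In Ku70-/- cells 34.5% of the 5063 insertions were 1 bp, and in cycling Lig4-/- cells 41.7% were 4 to 20 bp. G and C made up 54.4% to 67.2% of the bases in insertions of 1 to 8 bp in the 9 arrested WT libraries (median 65.5%), 62.2% to 65.5% in the 6 +Lig4 libraries, 35.9% to 49.5% in cycling WT and 40.4% to 41.8% in cycling Lig4-/-, with insertions that continue the bait left out. The cycling libraries all lay below the arrested WT and +Lig4 libraries. In Ku70-/- cells C alone was 45.7% of these bases, and in arrested WT G was the commonest at 38.4%.

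Many end pairs recurred across libraries. Among joins without insertion, 990 of the 2938 end pairs of Ku70-/- clone A1 were found in all 3 libraries, and in B1 1780 of 3834, which held 91.3% of the rows. In WT clone A 39 of 248 pairs held 81.3% of the rows and in clone B 81 of 458 held 92.9%. Of the recurrent pairs 33 were common to both WT clones (84.6% of the clone A list, 40.7% of the clone B list), and 771 to both Ku70-/- clones (77.9% and 43.3%). WT clone A and Ku70-/- clone A1 shared 35, which is 89.7% of the first list and 3.54% of the second. Cycling WT and cycling Lig4-/- shared 125 (67.2% and 52.3%). These lists grow with the number of rows, which differ between groups.

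The sequence itself offers few overlaps. Of the 6617 products that 1 to 100 bp of prey loss and 0 to 86 bp of bait loss can give, 75.0% share no base at the junction, 19.9% share 1 bp and 5.06% share at least 2 bp. In all, 78.2% of these products were seen in at least 1 library. Among joins without insertion the rows with at least 2 bp were 32.1% to 37.6% in Ku70-/-, 30.6% to 37.6% in Lig4-/- Ku70-/-, 25.6% to 43.0% in arrested WT, 47.3% to 56.3% in cycling WT and 69.4% to 70.0% in cycling Lig4-/- libraries. When each junction was counted once per library these were 8.98% to 12.3%, 8.94% to 14.9%, 12.8% to 23.7%, 24.6% to 27.4% and 29.0% to 30.4%. Cycling WT lay above arrested WT in both counts, whereas arrested Lig4-/- libraries spanned 25.0% to 80.0% of rows and 27.3% to 77.8% of junctions, around the cycling Lig4-/- values. Distinct counts depend on depth: distinct junctions were 11.4% to 22.6% of the rows in Ku70-/- libraries and 53.8% to 97.4% in arrested Lig4-/- libraries.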

How the data were processed

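The deposited Cas9 junction lists hold 1 row per read with genome positions of the bait and prey alignments, which per the labels' protocols come from the authors' JoinT-seq pipeline on libraries normalised to a fixed number of raw reads; the submitters' processing notes name Bowtie2 and mm10. These values are other than counts or normalised expression, and every count here was made from the rows. Rows were chosen by prey position, and bait loss, overlap, insertion and total deletion were computed from the alignment ends. The bait alignment ends at the break, so inserted bases that continue the bait are counted as insertions unless stated. The 5 measures per library (log2 abundance with a pseudocount of 0.5 rows, share of junctions, microhomology share with a minimum of 2 bp, insertion share and median total deletion) were compared with 2-sided exact permutation tests over libraries within lineages (400 relabellings, smallest p 0.005; 20 and 0.1 in 1 lineage), adjusted by Benjamini-Hochberg over 50 tests, of which 23 stayed at or below 0.05. Intervals of differences were obtained by inverting the test, and intervals of single shares are exact Clopper-Pearson at 95%. The permutation test was tested on simulated data.

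The 12 end pairs with the largest mean share over groups, the top 2 of each class and the top 5 prey positions were named. Members, lists and alternatives were chosen with earlier results of these data known. Leaving out continued bait bases, leaving out prey ends in the CA repeat, and the other Lig4-/- A1 set as control for +Lig4 were added after seeing the data. Of 54 replicate pairs, 16 differed by no more than sampling noise (chi-square test), but no read name was shared, and all were kept as separate samples. Same-numbered libraries did not deviate together in most contrasts: the correlation of every pair exceeded 0.1 in 3 of 15 (range -0.634 to 0.405). Libraries came from 16 sequencing runs. RefSeq supplied the gene bounds. Libraries of the other experiments in the series were not used here. Software was Python 3.11.15, pandas 2.3.3, numpy 2.4.6, scipy 1.17.1 and matplotlib 3.10.9.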

Additional observations from a re-analysis of the deposited data

Results flagged for a closer look

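The effect of cycling on the median total deletion differed between genotypes: it was 13.7 bp in WT and -24.7 bp in Lig4-/-, a difference of -38.3 bp (exact permutation p = 0.015, adjusted p = 0.0357, 95% interval -72.0 to -12.7). The 3 arrested Lig4-/- libraries behind it held 111 short prey deletions in all. The Lig4-/- arm alone had an exact permutation p of 0.3, its cycling and arrested libraries overlapped, and it ranged from -36.9 to -8.17 bp with 1 library left out. Without any 1 of the cycling Lig4-/- libraries the exact permutation p of the difference was 0.06 to 0.065. Without prey ends in the CA repeat the Lig4-/- arm was -3.67 bp and the difference -15.3 bp (exact permutation p = 0.035).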

How the results depend on the processing

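All values below are differences as in the report, in points for shares, bp for total deletion and log2 for abundance. Where a call or direction changed, the cause was not tested. Main values not printed above are 19.9 (share) and -24.6 (insertions) for cycling Lig4-/-. For the difference of cycling effects they are -4.35 (share) and -1.46 (microhomology), and for Lig4-/- Ku70-/- minus Lig4-/- 8.33 (total deletion). Differences in abundance kept their direction and side of the threshold under all alternatives except Lig4-/- Ku70-/- minus Ku70-/-, which was 0.25 over distinct junctions and -0.51 to 0.14 with 1 library left out.

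Among the alternatives that covered every measure and comparison, counting distinct junctions changed the call or direction of the most results. The share of junctions became -9.23 for Lig4-/- minus WT, 16.9 for Lig4-/- Ku70-/- minus Lig4-/-, 4.03 for +Ku70, 1.65 for +Lig4 and -0.41 for Lig4-/- Ku70-/- minus Ku70-/-. Microhomology became -16.7 for Ku70-/- minus Lig4-/-, -26.6 for Lig4-/- Ku70-/- minus Lig4-/-, 13.6 for +Ku70 and -12.3 for cycling Lig4-/-. Insertions became -10.5 for Lig4-/- Ku70-/- minus Lig4-/-, -5.18 for +Ku70 and 11.6 for cycling Lig4-/-. The exact p was 0.085 for that share and 0.075 for those insertions of Lig4-/- Ku70-/- minus Lig4-/-, which ended both calls. Total deletion became 31.4 for Ku70-/- minus Lig4-/-, 33.1 for Lig4-/- Ku70-/- minus Lig4-/- and -18.4 for +Ku70. Over distinct fragments the share was 0.44 for Lig4-/- minus WT, -12.6 for +Lig4 and -0.75 for Lig4-/- Ku70-/- minus Ku70-/-, insertions 4.63 for +Ku70, and total deletion 15.1 for Lig4-/- Ku70-/- minus Lig4-/- and -3.5 for +Ku70.

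With prey losses of 1 to 50 bp the share was 5.79 for Lig4-/- minus WT, -7.54 for +Ku70, -17.0 for +Lig4 and 4.18 for the difference of cycling effects, microhomology -0.82 for +Ku70, and total deletion -1.92 for Ku70-/- minus Lig4-/-. With losses of 2 to 100 bp, Lig4-/- Ku70-/- minus Ku70-/- was -0.81 in share and -0.93 in microhomology. As a share of rows within 100 kb, +Ku70 was -2.43, cycling Lig4-/- -16.95 and the difference of cycling effects -41.6 (exact permutation p = 0.005). As a share of all rows, cycling Lig4-/- was 19.9, so its direction turned with the rows counted. A microhomology minimum of 1 bp gave 19.3 for Ku70-/- minus Lig4-/-; a minimum of 3 bp gave -8.04 for Lig4-/- Ku70-/- minus Lig4-/-, -0.16 for +Ku70, -0.30 for Lig4-/- Ku70-/- minus Ku70-/- and 5.48 for the difference of cycling effects. Without prey ends in the CA repeat the share was 2.09 for Lig4-/- minus WT, -7.44 for +Ku70, -15.2 for +Lig4 and 3.06 for the difference of cycling effects, microhomology -0.12 for +Ku70 and -0.33 for Lig4-/- Ku70-/- minus Ku70-/-, and total deletion 29.8 for Ku70-/- minus Lig4-/- and -15.3 for the difference of cycling effects; the share of Lig4-/- Ku70-/- minus Ku70-/- was 4.59. Without insertions that continue the bait the +Lig4 share was -20.5. With the other Lig4-/- A1 set as control, insertions of +Lig4 were 12.96 (exact permutation p = 0.205), and no other +Lig4 measure changed its call.

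The LAM-HTGTS lists of lineage A gave shares of 35.6 (Ku70-/- minus WT), 2.32 (Lig4-/- minus WT) and 33.3 (Ku70-/- minus Lig4-/-), microhomology of -3.28 (Ku70-/- minus WT) and -15.5 (Ku70-/- minus Lig4-/-), insertions of -40.3 and -13.3, and total deletions of 29, 2.5 and 26.5. The HTGTS-Rep-Rejoin lists gave shares of 2.43 (Lig4-/- minus WT) and 65.5 (Ku70-/- minus Lig4-/-), microhomology of 23.7 and insertions of -67.2 (Ku70-/- minus WT) and -37.1 (Ku70-/- minus Lig4-/-), and total deletions of 39.7 and -5.83.

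Replicate numbers did not pair the libraries in most contrasts. With the replicate block, whose smallest p is 0.03125, the values were the same. The exact block p was 0.09375 for the share of Lig4-/- minus WT (9.94) and of +Lig4 (-21.5). It was 0.0625 for the +Ku70 share (-12.5) and microhomology of Lig4-/- minus WT (9.16). It was also 0.0625 for insertions of +Lig4 (27.5) and the cycling difference in total deletion (-38.3). The block changed no other call.

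With 1 library left out, ranges were 8.54 to 11.0 (share, Lig4-/- minus WT), -28.7 to -15.5 (share, +Lig4; exact p above 0.05 without any +Lig4 library or either of replicates 1 and 2 of the A1 set, up to 0.11), -14.3 to -10.3 (share, +Ku70), -7.76 to -0.034 (share, difference of cycling effects), -2.80 to 4.30 (share, Lig4-/- Ku70-/- minus Ku70-/-), 5.82 to 11.2 (microhomology, Lig4-/- minus WT), -17.5 to -6.87 (Lig4-/- Ku70-/- minus Lig4-/-), -2.45 to 4.55 (+Ku70), -1.25 to 1.1 (Lig4-/- Ku70-/- minus Ku70-/-), -13.8 to 5.98 (difference of cycling effects), 2.86 to 4.70 (insertions, +Ku70), 16.5 to 26.4 (total deletion, Ku70-/- minus Lig4-/-), 5.17 to 10.4 (total deletion, Lig4-/- Ku70-/- minus Lig4-/-, the highest without replicate 1 of the Lig4-/- A1 set, exact permutation p = 0.01) and -50.6 to -21.8 (difference of cycling effects). Depth limits the Lig4-/- values, which rest on 12 to 268 joins per library.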
